A study of Pan troglodytes with 38 samples.

Results

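The 10 genes POSTN, TNC, FAP, FN1, LOX, ASPN, COMP, FMOD, LTBP2 and THBS4 were examined in RNA-seq data from chimpanzee hearts. They were listed together as genes of the scar-like matrix of activated fibroblasts, a label that was not tested here. They were taken by symbol from the 31373 genes of the annotated gene count table, and all 10 had a row. Frozen post-mortem heart tissue of 38 chimpanzees was sequenced as polyadenylated RNA, 1 library per animal, and the labels put all libraries in a single group without a treatment. RNA of 17 animals was extracted before 2018 (10 females, 7 males) and that of 21 in 2018 (12 females, 9 males), as the study's sample table gives it. RIN, a score of how intact RNA is, ran from 2.5 to 8.4 (median 5.9), and the 34 animals of known age were 10 to 57 years old. The chamber of the heart is not given in the labels, and some of the animals are relatives, so they are not fully independent. Some animals carry a note of a viral infection or exposure (mostly hepatitis B or C virus) in that table, which was not used here. The extraction year cannot be told apart from other differences between the libraries of each year.

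Cardiac fibroblasts keep up the collagen network that holds the heart muscle together. When the muscle is injured or strained, transforming growth factor beta and mechanical load turn some of them into activated fibroblasts and myofibroblasts. These cells secrete fibronectin, collagens and matricellular proteins (secreted proteins that signal to cells instead of bearing load), crosslink the fibres, and can leave a stiff scar.

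Totals on exons orthologous between human and chimpanzee were between 14408012 and 81603350 reads per library, with a median of 41226040. Levels are given as normalized CPM, reads of the gene scaled to the library's reads on orthologous exons and by TMM (a factor for library composition), and are compared between animals and not between genes. Cardiomyocyte markers summed to between 11794 and 150410 normalized CPM, so all libraries held heart muscle. The animals 537 and Little_R stood apart. In 537 and Little_R the 10 cardiomyocyte markers summed to 21536 and 11794 normalized CPM against 21581 to 150410 in the other 36 animals, the resident fibroblast markers to 15039 and 20117 against 2190 to 9950. Mitochondrial genes took 60.1% and 48.3% of the reads of the gene table in these animals and 17.2% to 53.9% in the others, so by that measure only 537 was beyond the rest. Results that moved without both animals are given both ways. In bulk tissue, fewer cells of a type and less RNA per cell cannot be told apart.

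FN1 encodes fibronectin, the first scaffold on which other matrix proteins are laid down. Its level was 74.7 normalized CPM in the lowest heart, 394 in the median heart and 1874 in the highest, a 25.1-fold range. The highest values belonged to 4x523, 537 and 4x0025, and 5 of the 21 hearts of 2018 lay below every heart of the earlier RNA.

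TNC encodes tenascin-C, a matricellular protein that is scarce in healthy heart and appears at sites of injury. Its level was between 0.675 and 425 normalized CPM with a median of 5.32, the widest range of the 10 genes at 629-fold. A single heart made most of this range. The heart 4x0025 stood at 425, and the next, 95A014 and 4x523, at 48.4 and 38.6. Without 537 and Little_R the median was 5.09.

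POSTN encodes periostin, the matricellular protein most used as a mark of the activated fibroblast. It was between 3.37 and 403 normalized CPM with a median of 109, a 119-fold range. The highest hearts were 4X0550, 4x0519 and 554_2, of which 4x0519 was also above the median for each of the other 9 genes and 4X0550 for 7 of them. Little_R, above the median for each of the other 9 genes, had 5.51 normalized CPM of POSTN, the lowest but 1.

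THBS4 and COMP are thrombospondins, secreted proteins that bind collagen and calcium. THBS4 was between 4.68 and 1626 normalized CPM with a median of 219. The top value was that of 537, the next was 786 in 4x0025, and the single low heart was 549, whose value was far under the next lowest, 37.6 in 724. COMP was between 0.274 and 134 with a median of 4.54. Its top values, 134 and 126, were those of 537 and Little_R, and without both the highest was 60.2 and the median 3.75. COMP had 13 reads in its lowest library, the fewest of any of these genes.

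LOX encodes lysyl oxidase, which crosslinks collagen and elastin. It varied least, from 4.17 to 60.6 normalized CPM with a median of 14.7, a 14.5-fold range. FMOD (fibromodulin) and ASPN (asporin) are small leucine-rich proteoglycans that bind collagen fibrils. FMOD was between 3.89 and 512 normalized CPM with a median of 22.8, and 537 with 512 stood above 462 with 250. ASPN was between 11.1 and 238 normalized CPM with a median of 44.5, again with 537 as the highest.

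LTBP2 belongs to the family of latent TGF-beta binding proteins and sits on microfibrils. It was between 17.7 and 766 normalized CPM with a median of 72.1, highest in 537 and 4x523 at 766 and 696. FAP encodes fibroblast activation protein, a membrane-bound peptidase of activated fibroblasts. It was between 0.747 and 74.7 normalized CPM with a median of 5.03. The highest hearts were 537 with 74.7 and Little_R with 44.3, and without both the highest value was 25.8 and the median 4.94.

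Without 537 and Little_R, the highest THBS4 was 786 normalized CPM and its median 203. For FMOD the highest was then 250 and the median 22.3, and for ASPN 158 and 40.7. These upper limits fell because 537 had been the highest heart for all 3 genes. For LTBP2 the highest was then 696 and the median 62.9. The top hearts of FN1, LOX and POSTN were other animals and kept their values, while the medians were 345, 14.2 and 109.

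**Figure D1:**
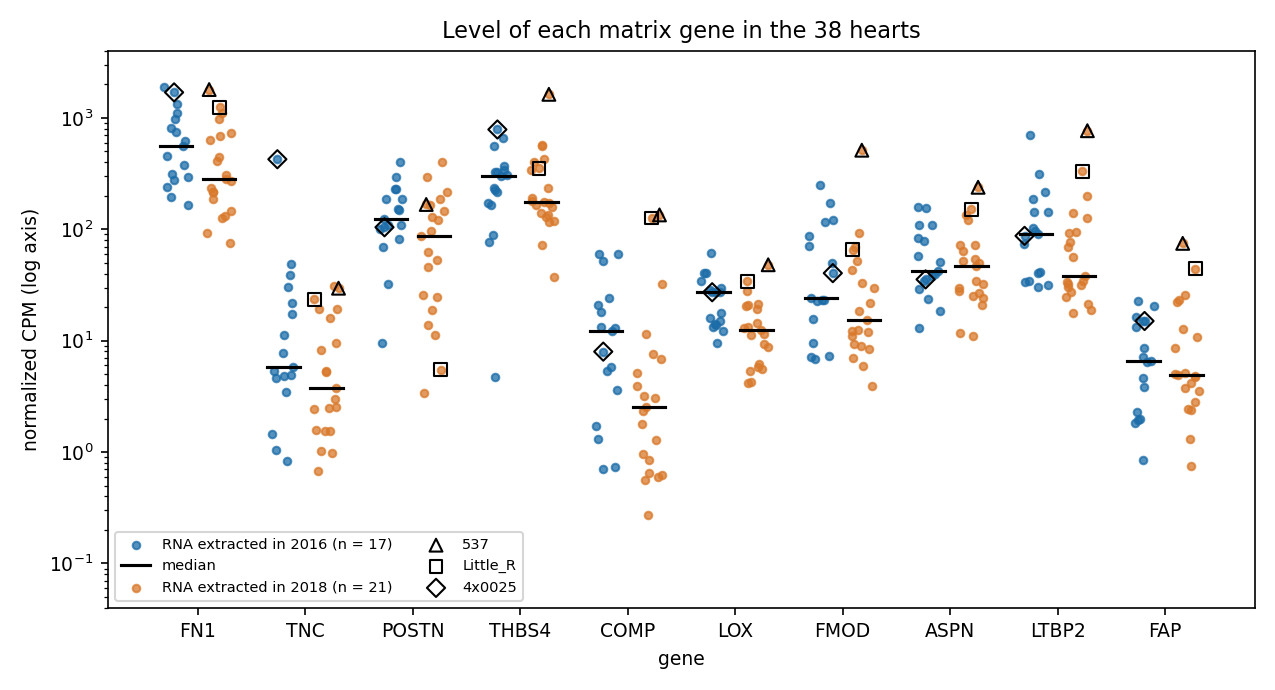
Normalized CPM (log axis) of the 10 genes in each of the 38 hearts, in blue for the earlier RNA (n = 17) and in orange for 2018 (n = 21), with black bars for medians and open symbols for 537, Little_R and 4x0025. TNC of 4x0025 stands at 425 above all other hearts, and POSTN of Little_R lies near the bottom of its gene at 5.51.

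The same hearts tended to be high or low for several genes. 537 was among the 5 highest hearts for 8 of the 10 genes and the highest for 6 of them (FAP, ASPN, COMP, FMOD, LTBP2 and THBS4), and 4x0519 was also among the 5 highest for 8. At the other end, 724 was among the 5 lowest hearts for 9 of the 10 genes and the lowest for FAP, ASPN and FMOD. The heart 549 was split: it was the highest for LOX at 60.6 normalized CPM, the lowest for THBS4 at 4.68, and rank 36 of 38 for POSTN at 9.52. In 549 the 7 atrial markers summed to 44231 normalized CPM, against 14988 in the next heart and a median of 502, and its myofibroblast sum of 2143 was also the highest. The part of these markers in its values was not tested.

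Dispersion was then used to ask whether the spread between hearts was large for genes of this expression level. It is the natural logarithm of the overdispersion of a gene's counts, less the trend of all genes on mean expression, so that 0 is the spread usual at that level. Over 13121 genes the median dispersion was -0.130, 44.4% of genes were above 0, and the top 10% started at 1.20. All 10 matrix genes were in that top 10%, with a median of 2.06. TNC had 2.80 (SE 0.567 from redrawing the 38 animals) and ranked 65th from the top, COMP had 2.74 (SE 0.277) and FMOD 2.66 (SE 0.267). LTBP2 followed with 2.38 (SE 0.223), POSTN with 2.17 (SE 0.200) and THBS4 with 1.95 (SE 0.286). FAP, ASPN and FN1 were at 1.86 (SE 0.308), 1.83 (SE 0.188) and 1.81 (SE 0.151). LOX had the lowest value, 1.26 (SE 0.198), a gap to FN1 of more than both standard errors together, while no other neighbours in this order were that far apart.

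Among the other genes of the pathway, 9 of 10 fibrillar and fibril-associated collagens were in the top 10%, with a median dispersion of 1.90. So were 17 of 23 other matrix proteins with a median of 1.73, and 8 of 18 genes of TGF-beta signalling with a median of 1.11. Only 7 of 17 genes of crosslinking and collagen processing reached it, with a median of 0.876, and 3 of 13 integrins and other matrix receptors, with a median of 0.527. Of the cell type marker lists, 9 of 10 resident fibroblast markers, 6 of 8 myofibroblast markers and 7 of 7 macrophage markers were in the top 10%, against 1 of 10 cardiomyocyte markers and 0 of 6 endothelial markers. High dispersion was not particular to fibroblast lists. It was also that of 5 of 7 atrial markers (median 2.96), 5 of 6 adipocyte, 4 of 4 neutrophil and 3 of 3 erythrocyte markers.

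The high dispersion was also seen without the animals that stood apart. Without 537 and Little_R all 10 genes stayed in the top 10%, with a median of 2.19, and in the earlier RNA alone the median was 2.37. In the RNA of 2018 alone, 9 of 10 stayed there, and LOX stood at the percentile 89.2. LOX also left the top 10% when either 549 or 554 was left out. TNC had 3.69 in the earlier RNA, which holds 4x0025, and 1.78 in that of 2018. Without 4x0025 it had 1.94.

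**Figure D2:**
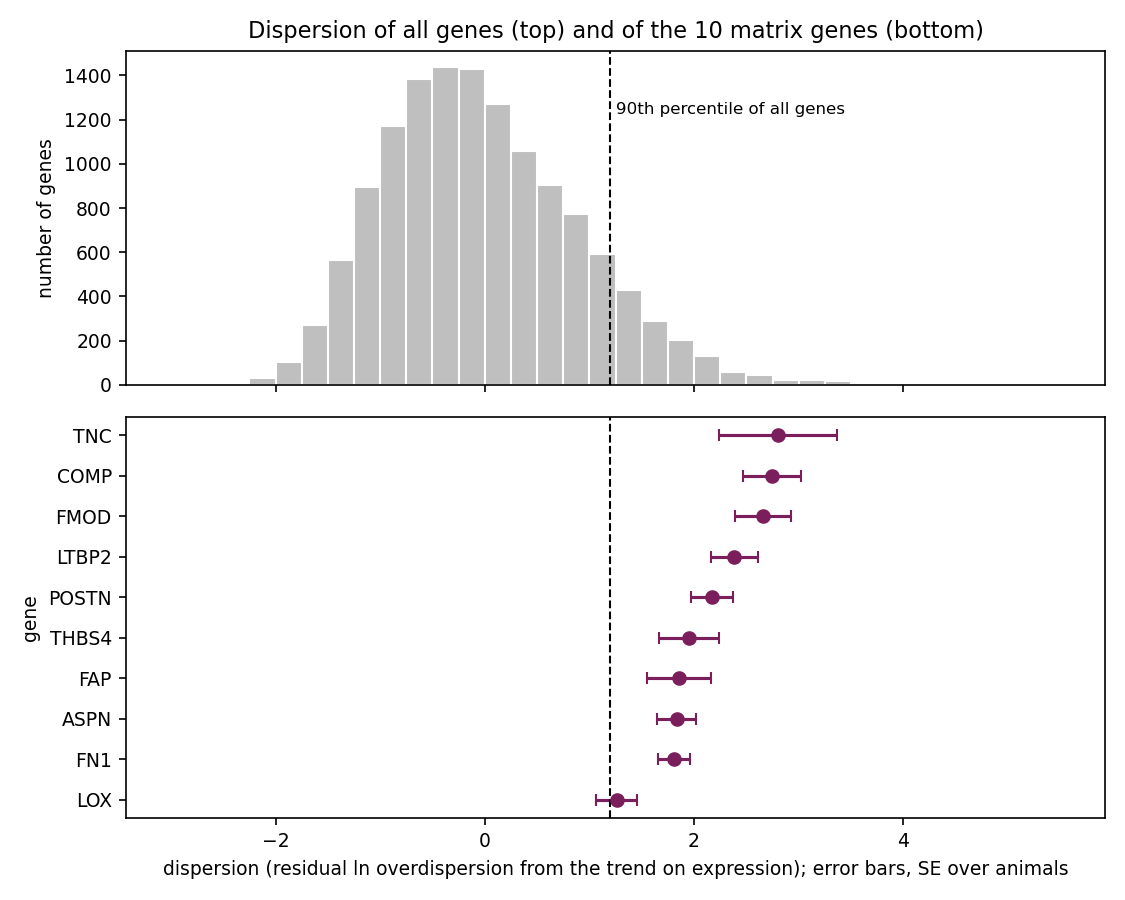
Dispersion, the residual of ln overdispersion from the trend on expression, as a histogram of 13121 genes (top) and for the 10 matrix genes with SE over the animals (bottom), with a dashed line at the 90th percentile of all genes, 1.20. The 10 genes run from LOX at 1.26 to TNC at 2.80, all beyond the line.

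Whether the genes rose and fell together was asked with Spearman's and Pearson's correlations of log2 normalized CPM over the 38 animals, for all 45 pairs, with 100000 permutations per pair and Benjamini-Hochberg adjustment over the pairs. The genes fell into a block of 9 and POSTN. All 36 pairs among FN1, LOX, ASPN, FMOD, LTBP2, COMP, TNC, FAP and THBS4 were positively correlated by Spearman's rho at an adjusted permutation p under 0.05, and 35 of them also by Pearson's r. None of the 9 pairs that contain POSTN passed by rho.

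FN1 and LOX, fibronectin and the enzyme that crosslinks the fibres laid on it, were the closest pair by rho, with rho = 0.889 and r = 0.887 (permutation p = 1e-05 each, the smallest that 100000 permutations can give, adjusted p = 1.96e-05 and 2.37e-05). Within the earlier RNA and that of 2018 rho was 0.865 and 0.903, and without the 2 animals farthest from the median of FN1, r was 0.874. FMOD and LTBP2 followed with rho = 0.863 and r = 0.897, and with rho of 0.909 and 0.795 within the earlier RNA and that of 2018. COMP was closest to LTBP2, with rho = 0.809 and r = 0.834. Among the pairs with TNC the highest was that with FN1, rho = 0.814 and r = 0.791, and rho stayed between 0.800 and 0.841 when each animal was left out in turn, 4x0025 included.

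The lowest rho of the block was that of THBS4 with COMP, 0.414 (permutation p = 0.0105, adjusted p = 0.0131) with r = 0.363, and without 537 and Little_R, the 2 animals farthest from the median of COMP, r was 0.258 and rho, at 0.344, did not pass. The relation of THBS4 with LOX passed by rho (0.507, adjusted permutation p = 0.00157) and missed the threshold by r (0.267, adjusted permutation p = 0.127). Without 549 and 554, the 2 animals farthest from the median of LOX, r of that pair was 0.691. With TNC, ASPN, FMOD and LTBP2, r of THBS4 was between 0.368 and 0.463, and rho between 0.505 and 0.692. Without the 2 animals farthest from the median of the other gene, r fell to between 0.265 and 0.332. These values of r thus depended in part on such hearts. The fits still held 549, by far the lowest heart for THBS4, and its part in them was not tested. Without the 2 animals farthest for FN1 or FAP, r of THBS4 went from 0.465 to 0.488 with FN1 and from 0.711 to 0.675 with FAP. The closest partner of THBS4 was FAP, with rho = 0.797 and r = 0.711.

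POSTN had rho between -0.178 with TNC and 0.219 with THBS4. With FN1 rho was 0.0222 (permutation p = 0.895) and r was 0.0678 with a 95% confidence interval of -0.257 to 0.379, and with LOX rho was -0.0227 and r was -0.0306 (interval -0.347 to 0.292). For 8 of the 9 partners the interval of r included 0. The exception was THBS4, with r = 0.367 (interval 0.054 to 0.615, adjusted permutation p = 0.0306), which did not pass by rho (0.219, adjusted p = 0.23). With TNC, rho was -0.525 within the 17 animals of the earlier RNA and -0.0779 within the 21 of 2018. In no setting did a pair of POSTN pass by rho, apart from POSTN with THBS4 in the normalized matrix of the authors (rho = 0.360, 37 animals, adjusted permutation p = 0.0351). The pairs share animals and libraries, the intervals assume independent animals, and no test was made of the difference between the correlations of POSTN and those of the others.

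**Figure D3:**
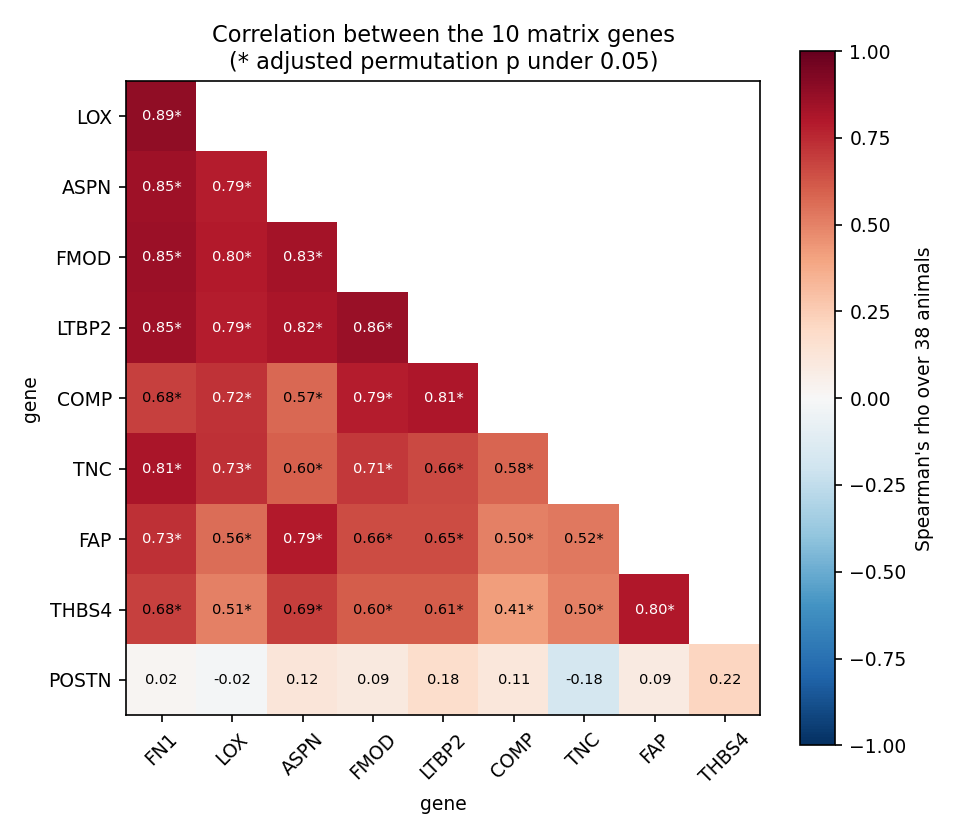
Spearman's rho of log2 normalized CPM over 38 animals for each pair of the 10 genes, with stars for an adjusted permutation p under 0.05. The 36 pairs of the first 9 genes run from 0.414 to 0.889 and are all starred, and the POSTN row runs from -0.178 to 0.219 without a star.

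**Figure D4:**
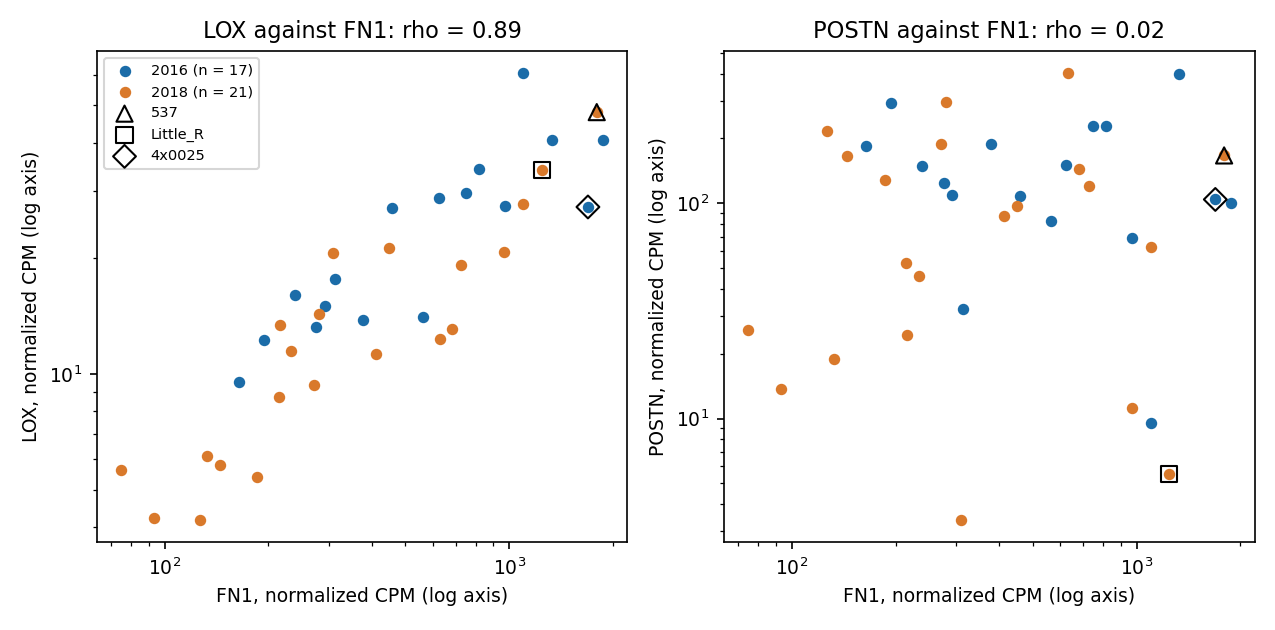
LOX (left) and POSTN (right) against FN1 in normalized CPM on log axes, 1 point per heart coloured by extraction year, with open symbols for 537, Little_R and 4x0025. LOX rises with FN1 (rho = 0.889), and hearts of high FN1 have both high and low POSTN (rho = 0.0222).

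Over 12623 other genes with a symbol, those most like each member by Spearman's rho were listed as a description, without a test. For FN1 these were COL5A2 (0.934), COL1A2 (0.916), BGN (0.914), SERPINE2 (0.912) and COL3A1 (0.911), of which 3 encode fibrillar collagens and BGN a small proteoglycan. For ASPN they were led by SFRP4 (0.934), a secreted Wnt antagonist, for FMOD by AEBP1 (0.911), for LOX by BGN (0.882) and for LTBP2 by PLCE1 (0.889). Genes near TNC included MSN (0.850), which encodes moesin, and COL4A1 (0.824), a collagen of basement membranes. FAP was most like MALL (0.865) and COL3A1 (0.808), COMP like CP (0.828), which encodes ceruloplasmin, and THBS4 like F2R (0.768), the thrombin receptor. BGN was among the 5 nearest genes of 5 members and COL3A1 of 4.

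POSTN shared no near gene with the other members. Its nearest were TOR1AIP1 (0.668), ORC3 (0.666), KIF13A (0.661), ANKH (0.651) and CASD1 (0.651), none of which encodes a matrix protein. Its median rho with the 10 collagens was -0.0148, against 0.849 for FN1, 0.840 for ASPN and 0.518 for COMP. With the genes of TGF-beta signalling its median rho was -0.0559 and that of FN1 0.703.

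Members and cell type markers were then set side by side, as 140 correlations of each gene with the summed level of 14 marker lists, of which 49 passed after adjustment over all of them. The resident fibroblast sum (10 of 10 markers had a row, between 2190 and 20117 normalized CPM) was positively correlated with 7 members, from rho = 0.519 for TNC to 0.739 for LOX. The exceptions for this sum were POSTN, FAP and THBS4, which were not alike. The median rho with the single markers was 0.487 for FAP, beside 0.502 for TNC and 0.477 for COMP. It was 0.366 for THBS4 and -0.0863 for POSTN. Within the earlier RNA and that of 2018, rho with the sum was 0.601 and 0.800 for LOX and 0.0956 and 0.746 for TNC. The myofibroblast sum (8 of 8 markers, 242 to 2143 normalized CPM) was positively correlated with the same 7, between 0.539 for ASPN and 0.656 for FMOD. Single genes weighed heavily in both sums. GSN gave 50.3% of the resident fibroblast sum, and TAGLN and ACTA2 gave 42.6% and 27.3% of the myofibroblast sum. Both, and MYH11, next in that sum, are contractile genes that smooth muscle also expresses. The cardiomyocyte sum was negatively correlated with 5 members, between -0.402 for FMOD and -0.526 for TNC. For COMP this relation was weak within the earlier RNA (rho = -0.0858) and strong within that of 2018 (-0.771). Sums of other cells moved with the members as well. The atrial sum was positively correlated with 5 members (FAP, FN1, LOX, ASPN and LTBP2), with rho up to 0.480, and for LOX rho was 0.755 within the earlier RNA and 0.110 within that of 2018. The sums of T and NK cells and of valve, tendon and cartilage were also positively correlated with 5 members each, the endothelial sum with 4, and the erythrocyte and epicardial sums with 3 each. VWF gave 60.1% of the endothelial sum and HBB 77.4% of the erythrocyte sum. The adipocyte sum was negatively correlated with 3. FABP4 and PLIN4 gave 61.0% and 35.8% of the adipocyte sum. The medians of its other genes, ADIPOQ, PLIN1, LEP and CIDEC, were at most 0.610 normalized CPM. SOX9 and SCX gave 52.3% and 31.8% of the valve, tendon and cartilage sum. For the macrophage, neutrophil and smooth muscle sums 0 relations passed. Without 537 and Little_R, 32 of the 140 relations passed.

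POSTN again differed in its values. Its rho with the resident fibroblast sum was -0.0185 (permutation p = 0.912) and with the myofibroblast sum -0.152. With the Schwann cell sum rho was 0.609 and r was 0.685 (adjusted permutation p = 0.00154 and 0.000467). There rho was 0.583 and 0.597 within the earlier RNA and that of 2018, and 0.602 without 537 and Little_R. NCAM1, which gave 53.1% of that sum and is not restricted to Schwann cells, was left out in a further sum, and rho was then 0.529 (adjusted permutation p = 0.00644). With the sum of epicardial and mesothelial markers rho of POSTN was -0.510 (adjusted permutation p = 0.00988), which did not pass once KRT18 was left out of the sum (-0.385, adjusted permutation p = 0.0523). With the cardiomyocyte sum r of POSTN was 0.529 (adjusted permutation p = 0.00732) and rho was 0.324 (adjusted permutation p = 0.0964). Without 495 and Little_R, the 2 animals farthest from the median of POSTN, this r was 0.220. The part of cell composition in these relations was not tested.

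Differences between the extraction years were tested with edgeR's quasi-likelihood test on counts with sex as a covariate. Between the RNA of 2018 and the earlier RNA, 2646 of 16000 genes tested (16.5%) had an adjusted p under 0.05, 12.2% higher and 4.29% lower in 2018. Of the 10 members 1 did, TNC, a share of the same order as that of all genes. TNC was lower in the RNA of 2018, by a log2 fold change of -1.98 (SE 0.704, adjusted p = 0.048), with a mean of 8.98 ± 9.92 normalized CPM (SD, n = 21) against 37.2 ± 101 (SD, n = 17). Its medians were much closer, 3.74 and 5.75. The call depended on 4x0025. Without it the log2 fold change was -0.44 (edgeR, adjusted p = 0.595), with DESeq2 it was -0.43 (adjusted p = 0.555), and TNC passed in 19 of the 38 fits that left out 1 animal.

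LOX had a log2 fold change of -0.69 (SE 0.271, adjusted p = 0.0717), with a median of 12.4 normalized CPM in 2018 against 27.1 before, and 18 of 21 hearts of 2018 lay under the median of the earlier RNA. It passed with DESeq2 (-0.71, adjusted p = 0.0407). The other 8 members had log2 fold changes between -0.59 for FMOD and 0.47 for FAP, and none passed. Values of both years overlapped for each of the 10 genes.

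Leaving out 537 and Little_R, both of 2018, changed this. All 10 log2 fold changes were then below 0, and 4 members had an adjusted p under 0.05: LOX with -0.97 (SE 0.248, adjusted p = 0.00716), COMP with -2.03 (SE 0.617, adjusted p = 0.0237), TNC with -2.29 (SE 0.725, adjusted p = 0.0303) and FMOD with -1.34 (SE 0.465, adjusted p = 0.04997). In that fit 2123 of 15876 genes passed (13.4%), 3.85% with lower levels in 2018. It kept 4x0025, on which the call of TNC with all animals depended. The hearts left out were the 2 highest for COMP, and 537 was the highest for FMOD. Leaving them out therefore by itself lowers the levels of 2018 for these genes. With both animals in the fit the log2 fold change of COMP was -0.085 (SE 0.736), although its median was 2.54 normalized CPM in 2018 against 12.2 before, and 18 of 21 hearts of 2018 lay under the earlier median. The medians of LTBP2 were 37.8 and 91.4, and 14 of 21 hearts of 2018 lay under the earlier one. Among the animals of the Yerkes center alone (n = 21), 0 members passed with edgeR, beside 1.64% of 16280 genes. At an unadjusted p under 0.05 it was 1 of 10 members, beside 2685 of the 16280 genes.

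For the other genes of the matrix the counts differed between lists, beside the 16.5% of all genes that passed. Of the collagens 0 of 10 passed with edgeR. At an unadjusted p under 0.05 it was also 0 of 10, beside 4943 of all 16000 genes. Of the other matrix proteins 1 of 24 passed, CHAD, with 1.88 (SE 0.403). CHAD was near the floor, with a median of 0.392 normalized CPM and a highest value of 2.88. In crosslinking and collagen processing 4 of 17 were higher in 2018, against 12.2% of all genes. They included BMP1 with 1.08 (SE 0.257) and P4HA3 with 1.42 (SE 0.402), which cut and hydroxylate procollagen, and P3H1 with 0.59 (SE 0.195). Of TGF-beta signalling 1 of 18 was higher (SCX, 0.80, SE 0.219), and of the integrins and receptors 1 of 13 was lower (ITGB1, -0.37, SE 0.117). Markers of other cells moved with the year: 5 of 7 macrophage markers and 4 of 7 atrial markers were lower in 2018, and 3 of 5 adipocyte markers tested were higher. The macrophage sum was 71.6 to 768 normalized CPM in the earlier RNA and 32.8 to 326 in 2018, and the atrial sum 79.7 to 44231 and 68.2 to 14988. Their part in the values of the members was not tested.

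Between males and females 37 of 16000 genes (0.231%) had an adjusted p under 0.05 with extraction year as a covariate, 0.162% higher and 0.0688% lower in males. By edgeR and by DESeq2, 0 members did. 9 of the 10 members had higher fitted levels in males, and the median log2 fold change of all genes was 0.00232. Most members are correlated with each other, so their directions are not independent. LTBP2 had a log2 fold change of 1.09 (SE 0.445, adjusted p = 0.459), ASPN of 0.81 (SE 0.328, adjusted p = 0.456) and FMOD of 1.16 (SE 0.553, adjusted p = 0.568). These 3 were among 1361 of the 16000 genes with an unadjusted p under 0.05 by edgeR. Only TNC was fitted lower in males, with -0.25 (SE 0.707), which turned to 0.84 without 4x0025, a female. FMOD fell from 1.16 to 0.42 without 537 and Little_R. Besides, 2 of 7 atrial markers (BMP10 and KCNJ3) and 1 of 10 resident fibroblast markers (PI16, 1.87, SE 0.421) were higher in males. BMP10 and KCNJ3 were near the floor in most hearts, with medians of 0.0366 and 0.257 normalized CPM. Their highest values were 5590 and 12.4. The part of these 3 markers was not tested. In the interaction of sex and year 0 of 16556 genes (0%) and 0 members passed with edgeR and with DESeq2. At an unadjusted p under 0.05 edgeR found 741 genes and 0 members. The smallest SE of these interaction terms was 0.545, for LOX.

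With RIN as a further covariate, all 10 members had a positive slope and 0 passed, as did 0 of 16761 genes (0%). The slopes were between 0.16 log2 units per RIN unit for LOX (SE 0.0865) and 0.62 for COMP (SE 0.232, adjusted p = 0.228). At an unadjusted p under 0.05 with edgeR, 6 of 10 members and 2306 of 16761 genes were found. DESeq2 called 171 genes and 0 members. Without 537 and Little_R, whose RIN was 7.2 and 7.8, 1 member and 2117 of 16602 genes had an unadjusted p under 0.05. The slope of COMP was then 0.20. In the other settings 6 to 8 members had such a p. These were 6 members beside 686 of 16592 genes in Yerkes animals alone, and 7 beside 2379 of 16744 without 4x0025. With DESeq2 they were 8 beside 2663 of 16761, without TMM 8 beside 2109 of 16761, and without a filter 7 beside 3349 of 26939.

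Age was tested in the 34 animals of known age. 0 of 16492 genes (0%) passed with edgeR, 1222 had an unadjusted p under 0.05, and 0 of the 10 members were among these. Their slopes were between -0.020 log2 units per year for LTBP2 (SE 0.0216) and 0.041 for TNC (SE 0.0356). Without 4x0025 the slope of TNC was -0.022. DESeq2 called 2 genes and 0 members.

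**Figure D5:**
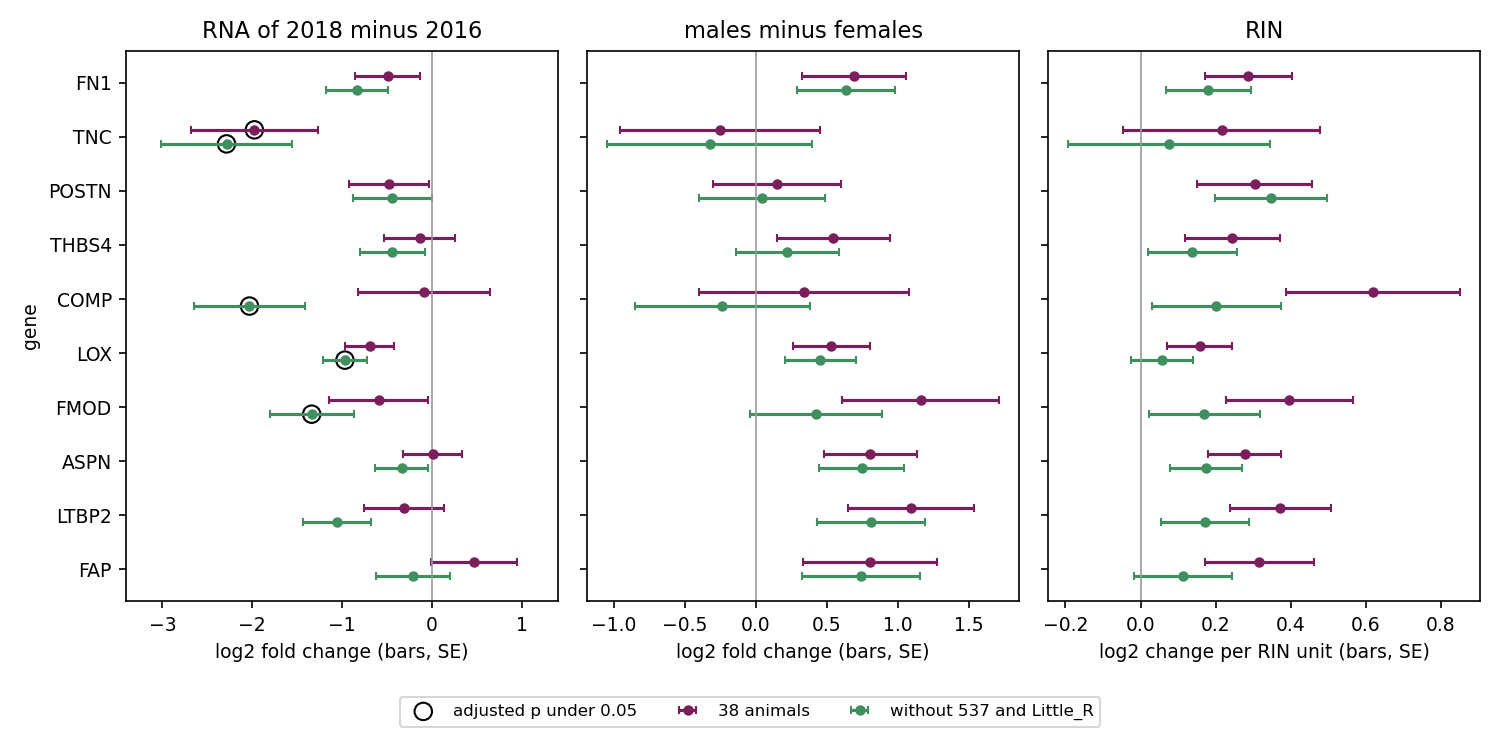
Log2 fold change between extraction years (left), between males and females (middle) and log2 change per RIN unit (right) for the 10 genes with SE as bars, in all 38 animals (purple) and without 537 and Little_R (green), with rings for an adjusted p under 0.05. Rings are seen only in the left panel, on TNC with all animals and on TNC, COMP, LOX and FMOD without both hearts.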

How the data were processed

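RNA-seq libraries (TruSeq v2, without strand marks) of 38 chimpanzee hearts were analysed. Gene counts were used as the authors deposited them, without normalization, from STAR (version 2.6.1b per the labels) for 31373 annotated genes of Pan_tro_3.0, together with the deposited counts on orthologous exons from featureCounts. Since strand was not kept, overlapping genes cannot be told apart. A further table of 37 animals contains a score that the authors derived from log CPM, standardized and quantile normalized. The human samples and other columns, 52 in all, were not analysed here. Year, sex, RIN, age and center of the animals come from the study's sample table, and kinship from its methods, not from the labels, which name 1 group. No 2 libraries were identical (highest r = 0.993).

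Tests used edgeR 4.0.16 (filterByExpr, TMM on the orthologous exon total, quasi-likelihood, Benjamini-Hochberg over all genes, threshold 0.05), with DESeq2 1.42.0 as an alternative. The SE of a log2 fold change is its size over the root of the F statistic. Models were sex and year, with RIN, age or the interaction added. Dispersion was modelled after the study, but on the annotated gene counts of 38 animals and not on orthologous exon counts. It used genes of at least 6 CPM in 1 animal, maximum likelihood overdispersion with the orthologous exon total as offset, and a LOESS trend of span 0.75, with SE from redrawing the animals 1000 times. Correlations used log2 normalized CPM with a pseudocount of 0.5 counts and two-sided permutation tests. Intervals of r used Fisher's transformation. Near genes were sought among genes of at least 1 normalized CPM in 19 animals, 5 per member, of which 1 is not reported here. Of each pathway list up to 3 genes per direction were named, by smallest p. The members and lists were chosen with earlier results of these data known. In simulated data for the comparison of years, 149 of 200 genes changed 2-fold were found among 15939, with 1 unchanged gene called. Of simulated pairs, 45 of 45 related and 0 of 400 unrelated ones passed, and simulated and estimated overdispersion had r = 0.980 over 2999 genes. Alternatives were no TMM, DESeq2, no filter, other animals left out, Yerkes alone, other covariates, single years and the score matrix. Leaving out 4x0025 for sex, RIN and age, and the changed marker sums, were added after seeing the data. The analyses used R 4.3.3, Python 3.11.15, numpy 2.4.6, pandas 2.3.3, scipy 1.17.1, statsmodels 0.14.6 and matplotlib 3.10.9.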

Additional observations from a re-analysis of the deposited data

How the results depend on the processing

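No paired analysis was possible because the labels put all animals in 1 group. The lowest count of any member in any library was 13 reads (COMP), and the counting error is largest there. The number of members called between the extraction years was 1, beside 16.5% of all genes. It was 0 without TMM (16.3% of all genes) and 2 without a filter on low counts (13.5%). Without 537 and Little_R it was 4 (13.4%), and in Yerkes animals alone 0 (1.64%). When single animals were left out, it was between 0 and 2. The number of called pairs was 36 and fell to 22 in the 17 animals of the earlier RNA (median rho 0.527), while it was 35 in the 21 animals of 2018 (median rho 0.701). The number of relations with marker sums that passed was 49, and it fell to 32 without 537 and Little_R. The causes of these changes were not tested. No member was called for sex, RIN or age in any setting.

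Some log2 fold changes that were not called changed sign. Between the years COMP was 0.095 without TMM, ASPN was -0.0092 with DESeq2, -0.084 without a filter, -0.34 without 537 and Little_R and -0.094 in Yerkes animals, FAP was -0.21 without 537 and Little_R, and THBS4 was 0.31 in Yerkes animals. When single animals were left out, ASPN was between -0.16 and 0.14, COMP between -1.15 and 0.19 and THBS4 between -0.39 and 0.036. Between males and females TNC was 0.86 with DESeq2, 0.85 in Yerkes animals and 0.84 without 4x0025, COMP was -0.23 without 537 and Little_R, and POSTN was -0.34 in Yerkes animals. Per year of age FMOD and COMP were -0.014 and -0.045 without 537 and Little_R, FMOD, ASPN, TNC and COMP were -0.049, 0.0015, -0.067 and -0.058 in Yerkes animals, and TNC was -0.022 without 4x0025. Spearman's correlation of POSTN with LOX was 0.0113 without TMM, 0.112 in the normalized matrix and 0.00257 without 537 and Little_R. In the earlier RNA it was -0.245 with FN1 and -0.0123 with FMOD, and in residuals on year, sex and RIN -0.0647 with FN1 and -0.0196 with COMP.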
